A study of Mus musculus with 12 samples.

Results

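The genes described here are 31 hypoxia-induced genes of the mouse that are neither glycolytic enzymes nor transporters, taken by symbol from the 55315 named genes of a deposited count table. All 31 were found, and 30 had enough counts to be tested among 16677 genes. Hif3a, an inhibitory relative of the hypoxia-inducible factors, had 7 counts over all libraries and was listed at 0 in 10 of 12, so it was not tested. RNA was sequenced from keratinocytes of mouse skin harvested 3 days after wounding, from a ring 0.25 mm wide around the wound, each library pooling 2 or 3 animals. The cells were sorted as alive, Epcam-positive and integrin alpha6-positive, without CD45, CD31 and CD117, and were divided by integrin alpha5 (A5), which marks the migrating tongue of epithelium.

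The 4 groups, with 3 libraries each, were wild-type A5-negative cells (the stationary wound edge), wild-type A5-positive cells (the migrating tongue), and the same fractions from RORγt-deficient mice, whose titles carry the name GFP-KI for a knock-in. All mice were wounded, so no group here shows unwounded skin. RORγt is the transcription factor that lymphocytes need to make IL-17, and the title of the series concerns the part of that cytokine in how wounded epithelium copes with little oxygen. The sources used here do not give strain, age or the alleles of the wild-type animals. Values of 3 libraries are given below in the order of their numbers, 1 to 3, as CPM, the count of a gene scaled to a common library size after TMM, and group values are mean ± SD with n = 3.

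When oxygen is plentiful, prolyl hydroxylases mark the alpha subunits of the hypoxia-inducible factors (HIF) for destruction by the VHL protein. In low oxygen these subunits persist, pair with ARNT and bind DNA at the core ACGTG or GCGTG near their target genes. Targets beyond glycolysis call in blood vessels, buffer acid, clear mitochondria, mature collagen for secretion and restrain growth. Healing epidermis crosses poorly perfused tissue, and many of these genes also answer to other signals, among them growth factors, stress and circadian timing.

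Promoter sequences are shown for the 6 members with such a core upstream and the smallest p in any comparison below, so that the sites can be read beside the expression values. Each is the stretch of 250 bases before the start of transcription given by RefSeq (GRCm38.p6), written 5′ to 3′ on the strand of the gene. Capitals mark ACGTG or GCGTG, or CACGT or CACGC where the core lies on the opposite strand, and CACGTG counts as 2 overlapping matches. The regions are chr7:110627407-110627656 (plus strand) for Adm, chr9:68653536-68653785 (plus) for Rora, chr4:43506776-43507025 (plus) for Car9, chr11:54100674-54100923 (plus) for P4ha2, chr16:36071562-36071811 (minus) for Fam162a and chr11:79254696-79254945 (minus) for Wsb1.
Adm: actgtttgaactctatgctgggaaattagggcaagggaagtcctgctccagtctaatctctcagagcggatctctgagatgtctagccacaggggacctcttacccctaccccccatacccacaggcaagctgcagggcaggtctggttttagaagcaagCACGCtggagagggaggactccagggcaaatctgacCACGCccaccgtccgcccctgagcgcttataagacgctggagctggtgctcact
Rora: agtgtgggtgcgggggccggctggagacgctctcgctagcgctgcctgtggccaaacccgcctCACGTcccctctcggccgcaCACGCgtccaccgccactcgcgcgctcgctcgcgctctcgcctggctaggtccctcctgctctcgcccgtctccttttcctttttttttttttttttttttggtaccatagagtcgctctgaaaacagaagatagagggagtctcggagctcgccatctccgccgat
Car9: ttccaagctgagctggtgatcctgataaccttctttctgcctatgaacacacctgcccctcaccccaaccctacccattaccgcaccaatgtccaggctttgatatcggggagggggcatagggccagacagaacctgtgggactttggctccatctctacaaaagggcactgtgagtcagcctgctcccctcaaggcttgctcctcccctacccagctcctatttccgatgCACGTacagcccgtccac
P4ha2: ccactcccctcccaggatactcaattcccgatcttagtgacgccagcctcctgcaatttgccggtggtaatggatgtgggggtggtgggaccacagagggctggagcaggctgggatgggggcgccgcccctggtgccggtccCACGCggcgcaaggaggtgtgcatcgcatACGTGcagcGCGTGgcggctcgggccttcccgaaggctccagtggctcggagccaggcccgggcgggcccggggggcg
Fam162a: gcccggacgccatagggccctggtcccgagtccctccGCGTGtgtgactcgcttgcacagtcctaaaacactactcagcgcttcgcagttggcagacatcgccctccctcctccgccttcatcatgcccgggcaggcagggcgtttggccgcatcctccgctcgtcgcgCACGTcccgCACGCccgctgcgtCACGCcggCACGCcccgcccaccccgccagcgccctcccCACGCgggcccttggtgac
Wsb1: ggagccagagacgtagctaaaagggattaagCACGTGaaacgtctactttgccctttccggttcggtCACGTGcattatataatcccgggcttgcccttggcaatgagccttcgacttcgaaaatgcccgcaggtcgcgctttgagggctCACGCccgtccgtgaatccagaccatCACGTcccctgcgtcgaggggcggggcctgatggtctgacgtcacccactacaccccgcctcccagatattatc

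Car9 held 1 match, 18 bases before its RefSeq start, and P4ha2 held 3, the nearest 69 bases before. Fam162a and Wsb1 held 6 matches each. In Wsb1, 4 of the 6 came from CACGTG read on both strands. Of the 31 members 24 had a promoter in the RefSeq table outside chromosome 18, which holds Lox and was left out for members. Of these, 19 (79.2%) held at least 1 match on either strand, against 38.6% of 27025 mouse promoters of the same length. The 27025 were not limited by chromosome. At least 3 matches stood in 6 of the 24 members, against 6.73% of all promoters. The median GC content was 61.4% in the members and 52% in all promoters, and its part in the difference was not tested. A match is a stretch of letters, not a measured binding site. Other isoforms can start elsewhere: GENCODE M21 annotates starts upstream of that of RefSeq for Car9, P4ha2 and Fam162a.

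Total counts per library ran from 29293687 to 74563616. Itga5, the gene of the sorting marker, was higher in A5-positive cells by a log2 change of 1.01 ± 0.14 (SE) in wild type and 1.17 ± 0.14 in RORγt-deficient mice (edgeR adjusted p 0.00293 and 0.000468). The 7 keratinocyte markers summed to between 28407 and 73252 CPM in every library. The 12 fibroblast markers, all above 0, summed to 817 to 2147 CPM in A5-negative libraries, 6484 to 9942 CPM in wild-type A5-positive and 11280 to 18259 CPM in RORγt-deficient A5-positive libraries. In bulk RNA fewer cells of a type and less RNA per cell cannot be told apart. The counting is not stated to use strand, and exons of 12 members overlap a gene on the opposite strand. The overlap was 19.8% of exonic length in Fam162a, 22.3% in Bnip3, 22.5% in Higd1a and 22.7% in Ankrd37, and under 10% in the others. Depending on settings that are not given, their counts may include those of the partner or lack reads of the shared stretch.

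Per kb of exon, Anxa2 had the highest mean level of the 4 groups, 748.9 ± 102 CPM per kb (SD over group means), followed by Tmem45a (149.4 ± 10.5), Ndrg1 (147.6 ± 36.1), Wsb1 (124 ± 39.6), Bhlhe40 (119.8 ± 10.6) and Fam162a (84.1 ± 36.4). Neighbours from Tmem45a to Bhlhe40 in this order lay within their spread of each other, while Tmem45a and Bhlhe40 themselves differed by more than both their SDs together. Vegfa (31.3 ± 3.74) and Adm (31.9 ± 10.7) stood side by side in the middle of the order. Car9 (3.14 ± 1.13), P4ha2 (3.12 ± 1.44), Vldlr (0.834 ± 0.103), Stc2 (0.473 ± 0.224) and Loxl2 (0.298 ± 0.325) were the lowest of the tested members. Across the 12 libraries the highest value exceeded the lowest by 1.23-fold for Bnip3l, 1.52-fold for Vegfa and Bhlhe40, 3.63-fold for Car9, 3.71-fold for Ndrg1 and 265-fold for Lox.

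**Figure D1:**
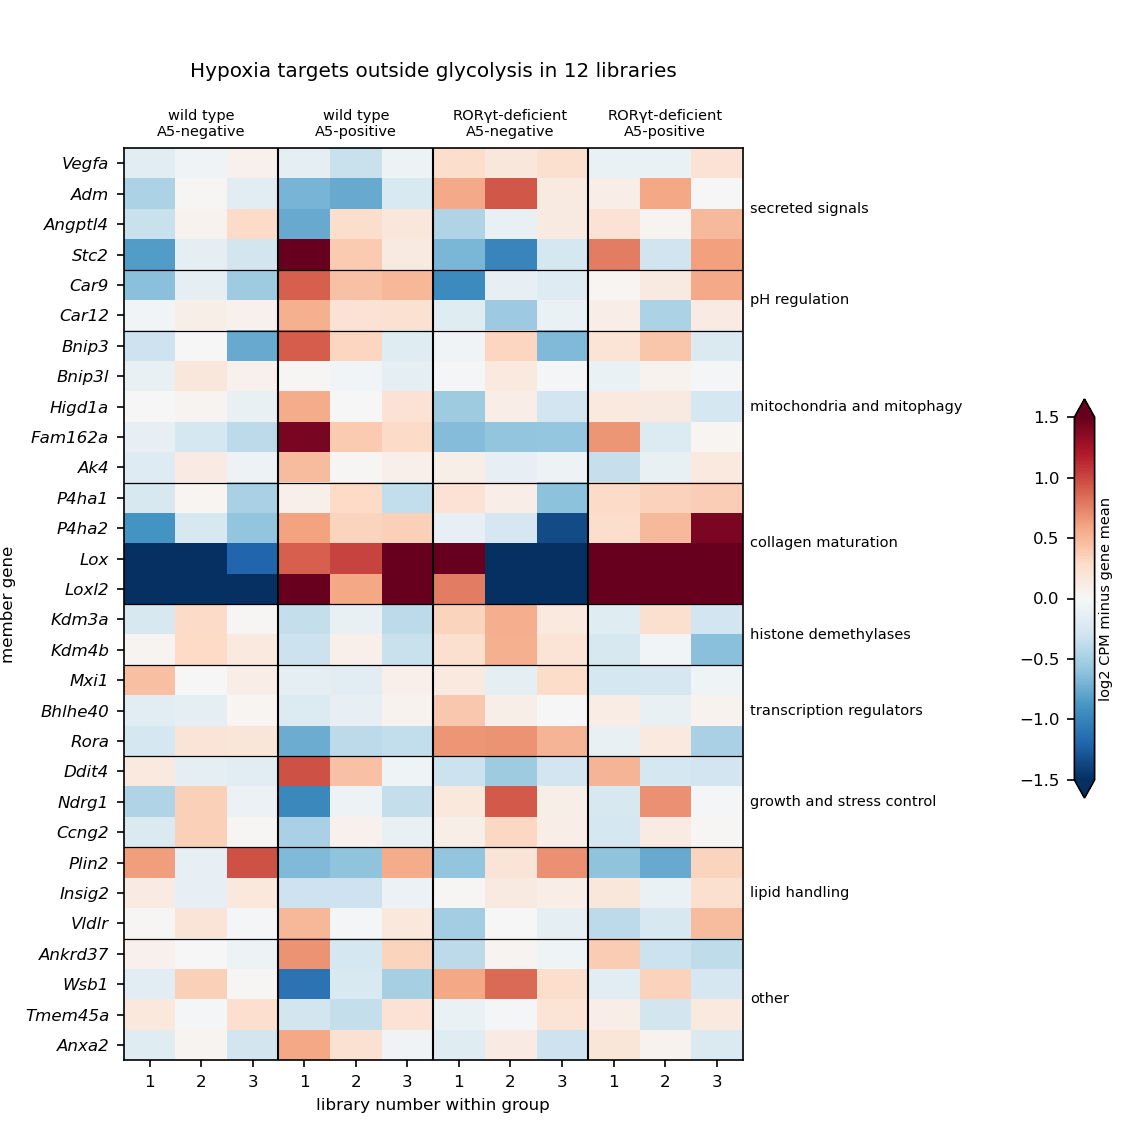
Log2 CPM of the 30 tested members minus the mean of each gene over 12 libraries, with genes ordered by role (rows) and libraries by group (columns); colours stop at 1.5 in either direction. Lox and Loxl2 are high in all 6 A5-positive libraries and in RORγt-deficient A5-negative library 1, and most other members stay within 1 log2 unit of their mean.

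Few members passed the test between the fractions, and none between the genotypes, before the library number was taken into account. In wild type, 1 of 30 tested members, Car9, rose in A5-positive cells and 0 fell (edgeR adjusted p, threshold 0.05), where 3.45% of all tested genes were called, 3.12% higher and 0.330% lower. Their median log2 change was 0.08, against 0.03 over all genes, and it was -0.03 without Lox and Loxl2. In RORγt-deficient mice 0 rose and 1, Rora, fell, where 5.52% of all genes were called, 4.56% higher and 0.965% lower, and the median was 0.05 against 0.00 over all genes. Between genotypes edgeR called 0 members in A5-positive cells and 0 in A5-negative cells, where 0.00600% of all genes (1 gene) was called in each. Averaged over both fractions it called 0 members and 0.0540% of all genes, 0.0360% higher and 0.0180% lower. At an unadjusted p under 0.05 the members counted 10 and 10 in the A5 comparisons, 4 in each genotype comparison and 8 in the averaged one. The share of all genes at that unadjusted p was not counted, so such counts, here and below, have no background beside them. Of all genes DESeq2 called 1454 and 1723 for A5, 493 and 21 for genotype in A5-positive and A5-negative cells, and 973 averaged. Its member calls were 4 and 4, 1 and 0, and 2 in the same order. These were Car9, Fam162a, Loxl2 and Rora with A5 in wild type (DESeq2 adjusted p 0.00603, 0.0122, 0.00156 and 0.0480), P4ha2, Loxl2, Kdm4b and Rora in deficient mice (0.00530, 0.0153, 0.0188 and 0.00405), Adm for genotype in A5-positive cells (0.0480), and Adm and Rora averaged (0.00196 and 0.0243).

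Libraries with the same number in different groups deviated together, so each comparison was also fitted with the number as a block. With the block the A5 comparison in wild type called 9 members, 5 higher and 4 lower, beside 14.4% of all genes (8.76% higher and 5.59% lower). In RORγt-deficient mice it called 7, with 3 higher and 4 lower, beside 17.6% of all genes (10.1% and 7.54%). The genotype comparison called 1 higher member in A5-positive cells, beside 4.02% of all genes (2.26% higher and 1.76% lower), and 0 in A5-negative cells (0.00600%). Averaged over the fractions it called 6 higher and 1 lower, beside 12.1% of all genes (6.97% and 5.13%). A difference in the A5 effect between the genotypes was not shown for any member: the interaction called 0 members and 0 genes (0%) with edgeR, with or without the block, and DESeq2 called 0 members and 8 genes. None of the members had an unadjusted interaction p under 0.05. A call named below as made with the block was not made by edgeR without it, and the log2 changes printed are those of the fit without the block unless said otherwise.

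Whether the 3 libraries of a group lay wholly above or below those of another was counted without a test. With A5 in wild type 7 members lay higher (Stc2, Car9, Car12, Fam162a, P4ha2, Lox and Loxl2), beside 15.9% of all genes, and 2 lower (Rora and Wsb1), beside 9.12%. In deficient mice 7 lay higher (Car9, Fam162a, P4ha1, P4ha2, Lox, Loxl2 and Ddit4), beside 14.3%, and 2 lower (Kdm4b and Rora), beside 11.3%. Between genotypes, deficient A5-positive cells lay higher for Adm and Lox (9.04% of all genes) and lower for Car12 (9.01%). Deficient A5-negative cells lay higher for Vegfa, Adm and Rora (7.33%) and lower for Car12, Fam162a and Ddit4 (8.26%). Carbonic anhydrases, collagen hydroxylases and lysyl oxidases made up 5 of the 7 higher members in each A5 comparison.

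**Figure D2:**
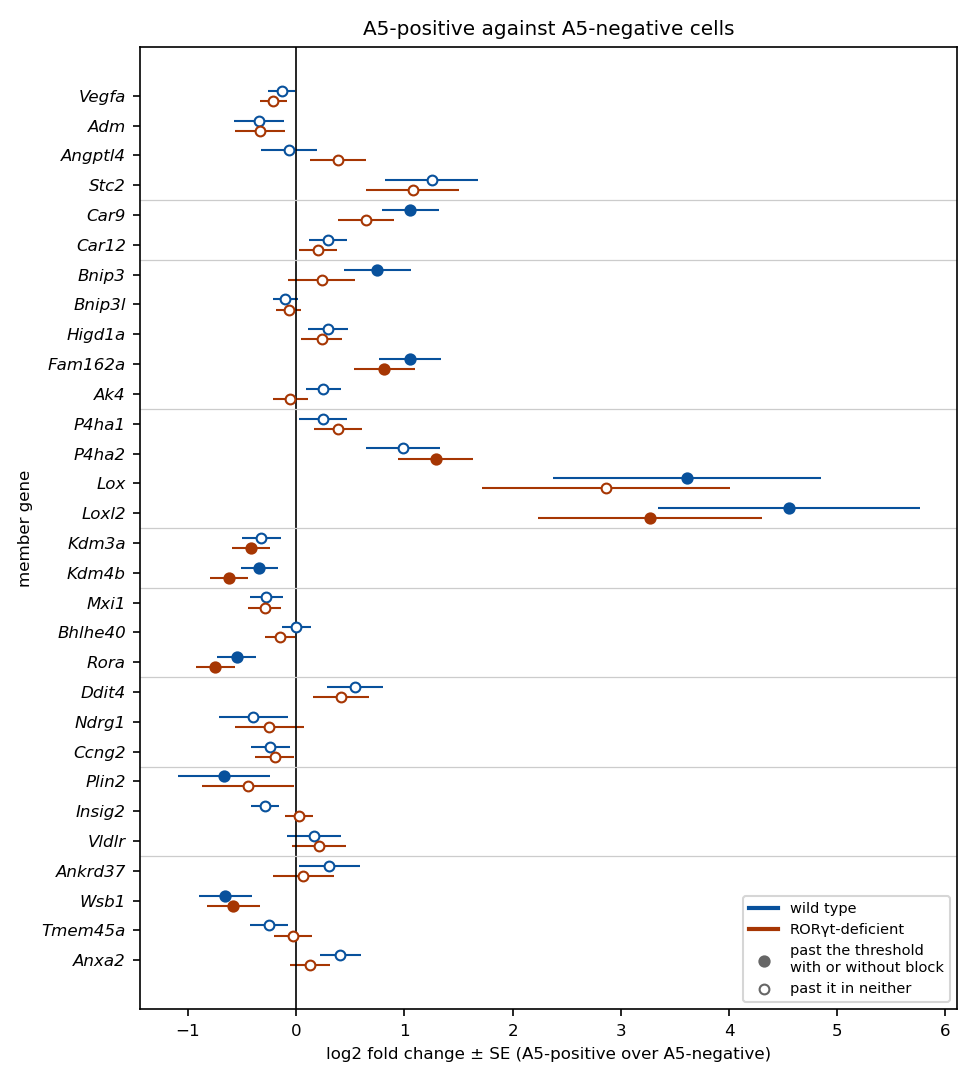
Log2 fold change with SE of each tested member between A5-positive and A5-negative cells (horizontal axis), in wild-type and RORγt-deficient mice, from the fit without the block. Filled points passed the threshold of 0.05 with or without the block; Lox and Loxl2 lie farthest to the right, with the widest errors.

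Of the 4 secreted signals Vegfa and Adm were called, both for genotype and with the block. Vegfa (chr17:46016993-46032369 in GRCm38, the build of all gene positions here, from GENCODE M21), the main growth factor for blood vessels, read 119, 129 and 139 CPM in wild-type A5-negative and 121, 105 and 126 CPM in wild-type A5-positive libraries. In RORγt-deficient mice it read 160.2, 149.6 and 157 CPM among A5-negative and 124, 124 and 155 CPM among A5-positive libraries. All 3 deficient A5-negative libraries lay above the 3 of wild type, while the A5-positive groups overlapped. Vegfa averaged over the fractions was higher in deficient mice by a log2 change of 0.23 ± 0.09 (SE), called with the block only (adjusted p 0.189, with the block 0.0484). That call stood in 2 of 12 fits that left out 1 library, which dropped number 3 of the deficient A5-negative or number 1 of the deficient A5-positive libraries, and reached 0.134 without wild-type A5-positive library 2.

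Adm encodes adrenomedullin, a peptide that widens vessels. It read 35.1, 49.3 and 43.2 CPM in wild-type A5-negative and 30.1, 28.9 and 41.7 CPM in wild-type A5-positive libraries, against 72.2, 92.9 and 53.5 CPM and 52.2, 72.8 and 48.6 CPM in the same fractions of deficient mice. Every deficient library was above every wild-type library of its fraction. Without overlap and in the same direction in both fractions was true of 2 of 30 members, Adm (higher) and Car12 (lower), and of 4.17% of all genes. The genotype change was 0.79 ± 0.23 in A5-positive and 0.78 ± 0.23 in A5-negative cells (adjusted p 0.204 and 0.779). Averaged over both it was 0.78 ± 0.16, called with the block (adjusted p 0.0118, without it 0.105), and the call was lost without wild-type A5-negative library 2 (0.055). Group means were 42.5 ± 7.14 and 33.6 ± 7.08 CPM in wild type and 72.9 ± 19.7 and 57.9 ± 13.1 CPM in deficient mice.

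Angptl4, an inhibitor of lipoprotein lipase, read 134, 176 and 207 CPM and 100.1, 203 and 189.9 CPM in wild-type A5-negative and A5-positive cells and 124, 156 and 185 CPM and 197, 175 and 238 CPM in those of deficient mice, with overlap in every comparison. Stc2, a secreted glycoprotein, had group means of 1.63 ± 0.401 and 3.87 ± 2.23 CPM in wild type. Its log2 change with A5 was 1.25 ± 0.43 there and 1.08 ± 0.43 in deficient mice, which passed in neither fit (adjusted p 0.133 and 0.174, with the block 0.0865 and 0.104).

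Both carbonic anhydrases, membrane enzymes that hydrate carbon dioxide outside the cell and so buffer acid, had non-overlapping A5 fractions in wild type. For Car9 (chr4:43506966-43513729), a standard marker of hypoxia, the libraries read 4.39, 6.13 and 4.68 CPM in wild-type A5-negative cells and 12.7, 9.25 and 9.59 CPM in wild-type A5-positive cells. The RORγt-deficient libraries read 3.49, 6.24 and 5.94 CPM among A5-negative and 6.94, 7.43 and 10.1 CPM among A5-positive cells. In both genotypes every A5-positive library was above every A5-negative one, which held for 25.0% of all genes in either direction in wild type and 25.6% in deficient mice. Car9 rose with A5 in wild type by a log2 change of 1.05 ± 0.26 (adjusted p 0.0497, with the block 0.0203). In deficient mice the change was 0.65 ± 0.26 and did not pass (0.177, with the block 0.0941), and the difference between the genotypes was -0.41 ± 0.37 (unadjusted p 0.289). Without the block the wild-type call stood in only 1 of 12 fits leaving out 1 library, that without RORγt-deficient A5-negative library 1 (0.0398), and the others gave 0.0553 to 0.213. It was also lost with RLE size factors or total counts in place of TMM. With the block it was lost on leaving out number 1 or 3 of the wild-type A5-negative libraries (0.0783 and 0.104) or wild-type A5-positive library 1 (0.106).

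Car12 (chr9:66713686-66766845) was lower in deficient mice with the block. It read 345, 378 and 371 CPM in wild-type A5-negative, 512, 412 and 414 CPM in wild-type A5-positive, 312, 242 and 330.2 CPM in deficient A5-negative and 379, 254 and 385 CPM in deficient A5-positive libraries. Each deficient library lay below the 3 wild-type libraries of its fraction. Averaged over the fractions the log2 change was -0.35 ± 0.13, called with the block (adjusted p 0.0378, without it 0.176). That call stood in 4 of 12 fits leaving out 1 library, those without wild-type A5-negative library 1, wild-type A5-positive library 3, RORγt-deficient A5-negative library 3 or RORγt-deficient A5-positive library 3. It reached 0.107 without RORγt-deficient A5-positive library 2.

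Of the 5 mitochondrial genes, Fam162a and Bnip3 were higher in A5-positive cells of wild type with the block. Fam162a, a small mitochondrial protein that promotes cell death in hypoxia, read 59.8, 54.3 and 49.6 CPM in wild-type A5-negative and 175, 85.3 and 79.6 CPM in wild-type A5-positive libraries. The values in deficient mice were 41.5, 43.2 and 43.7 CPM among A5-negative and 103, 56.7 and 66.6 CPM among A5-positive libraries. Wild-type A5-positive library 1 stood far above the rest, and the A5 fractions did not overlap in either genotype. The log2 change was 1.05 ± 0.29 in wild type (adjusted p 0.0674, with the block 0.013) and 0.82 ± 0.28 in deficient mice (0.125, with the block 0.0297). The wild-type call with the block was lost on leaving out number 1 or 3 of the wild-type A5-negative libraries (0.0662 and 0.0601). In deficient mice it was lost when number 1 of the A5-negative (0.142) or number 1 or 3 of the A5-positive libraries was dropped (0.119 and 0.109).

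Bnip3 (chr7:138890836-138909519), a receptor that tags mitochondria for autophagy, read 18.9, 23.4 and 13.9 CPM in wild-type A5-negative and 44.1, 29.5 and 20.7 CPM in wild-type A5-positive libraries, and 22.7, 29.5 and 14.9 CPM and 27.2, 31.5 and 20.3 CPM in deficient mice. Library 3 was the lowest in all 4 groups, so the A5-positive libraries exceeded the A5-negative ones of the same number although the groups overlapped. The change in wild type was 0.75 ± 0.31, called with the block (adjusted p 0.0213, without it 0.202). It was lost on leaving out any of the wild-type A5-negative libraries (0.0988, 0.053 and 0.0833) or wild-type A5-positive library 1 (0.0996). In deficient mice it was 0.24 ± 0.31 and passed in neither fit (0.683, with the block 0.318). Bnip3l, the paralog of Bnip3, stayed between 75.1 and 92.7 CPM in all 12 libraries. Higd1a, which acts on the respiratory chain, and Ak4, a mitochondrial adenylate kinase, had A5 changes of 0.29 ± 0.19 and 0.25 ± 0.16 in wild type, and neither passed in any comparison.

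The 4 genes of collagen maturation had A5 changes above 0 in both genotypes, and 2 of them passed with the block in each. P4ha1 and P4ha2 are catalytic subunits of collagen prolyl 4-hydroxylase, and Lox and Loxl2 are lysyl oxidases that crosslink collagen. P4ha1 (chr10:59323296-59373304) read 63.2, 76.1 and 53.4 CPM and 79, 92 and 58 CPM in wild-type A5-negative and A5-positive cells. In deficient mice it read 86.7, 80.5 and 48.8 CPM and 91.1, 95.1 and 96.9 CPM, without overlap, and its changes of 0.25 ± 0.22 and 0.39 ± 0.22 passed in neither fit. P4ha2 read 9.29, 14.7 and 11.4 CPM and 26.2, 21.8 and 22.1 CPM in wild type and 15.8, 14.5 and 6.76 CPM and 20.7, 24.2 and 46.1 CPM in deficient mice. In each genotype its A5-positive libraries were all above its A5-negative ones, and RORγt-deficient A5-positive library 3 was the highest. The change was 0.99 ± 0.34 in wild type (adjusted p 0.137, with the block 0.0823) and 1.29 ± 0.34 in deficient mice, called with the block (0.0346, without it 0.0504). The latter call was lost when number 2 or 3 of the A5-negative (0.0622 and 0.113) or number 3 of the A5-positive deficient libraries was dropped (0.132).

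Lox read 0.592, 0.565 and 2.74 CPM in wild-type A5-negative and 11.8, 12.7 and 22.2 CPM in wild-type A5-positive libraries. In deficient mice it read 23.2, 0.401 and 0.73 CPM among A5-negative and 43.8, 30.8 and 106 CPM among A5-positive libraries. RORγt-deficient A5-negative library 1 stood apart from the other two of its group and above wild-type A5-positive library 3. The A5 change was 3.61 ± 1.24 in wild type, called with the block (adjusted p 0.0473, without it 0.134), and 2.86 ± 1.14 in deficient mice, which passed in neither (0.173, with the block 0.0738). Without that library both passed in either fit: the changes became 3.57 (adjusted p 0.0176) and 6.71 (0.00217), or 3.79 (0.000185) and 6.84 (5.7e-05) with the block. The wild-type call with the block was lost without any of the 6 wild-type or the 3 RORγt-deficient A5-positive libraries (0.0577 to 0.156). Loxl2 (chr14:69609068-69695834) was low, with 0, 0.141 and 0.143 CPM in wild-type A5-negative, 1.96, 0.901 and 3.43 CPM in wild-type A5-positive, 1.03, 0.0286 and 0.0317 CPM in deficient A5-negative and 4.24, 3.17 and 4.26 CPM in deficient A5-positive libraries. In wild-type A5-negative cells this was 0, 5 and 5 counts.

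The A5 change of Loxl2 was 4.56 ± 1.21 in wild type (adjusted p 0.0633, with the block 0.0292) and 3.27 ± 1.03 in deficient mice (0.0949, with the block 0.0333). Without RORγt-deficient A5-negative library 1 the changes were 4.50 (0.0136) and 6.85 (0.00600) without the block. The calls with the block were lost without any of 5 libraries in wild type, which were A5-negative 1 and 3 and all A5-positive (0.0565 to 0.111). In deficient mice 6 libraries had this effect, A5-negative 2 and 3, all A5-positive, and wild-type A5-positive 2 (0.0507 to 0.0967). Between genotypes the change of Lox in A5-negative cells turned from 2.71 to -1.18 without library 1, and that of Loxl2 from 2.18 to -1.43, and neither was called. In A5-positive cells the genotype change of Lox was 1.96 ± 1.11 (adjusted p 0.413, with the block 0.285), and 1.82 (0.0126) with the block once that library was left out. Fibroblast markers were also higher in A5-positive cells. Of the 12 markers, 10 rose with A5 in each genotype, with median log2 changes of 4.84 and 5.54. Their summed level was 1877, 817 and 1035 CPM in deficient and 1965, 2147 and 1463 CPM in wild-type A5-negative libraries. The median over the 12 markers of log2 CPM minus the gene mean ranked the wild-type libraries otherwise. It was -1.15, -3.42 and -3.12 in deficient and -2.20, -3.25 and -2.48 in wild-type A5-negative libraries. Lox and Loxl2 were highest in number 1 of the deficient and number 3 of the wild-type A5-negative libraries. The part of fibroblast RNA in the values of Lox, Loxl2 and P4ha2 was not tested.

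**Figure D3:**
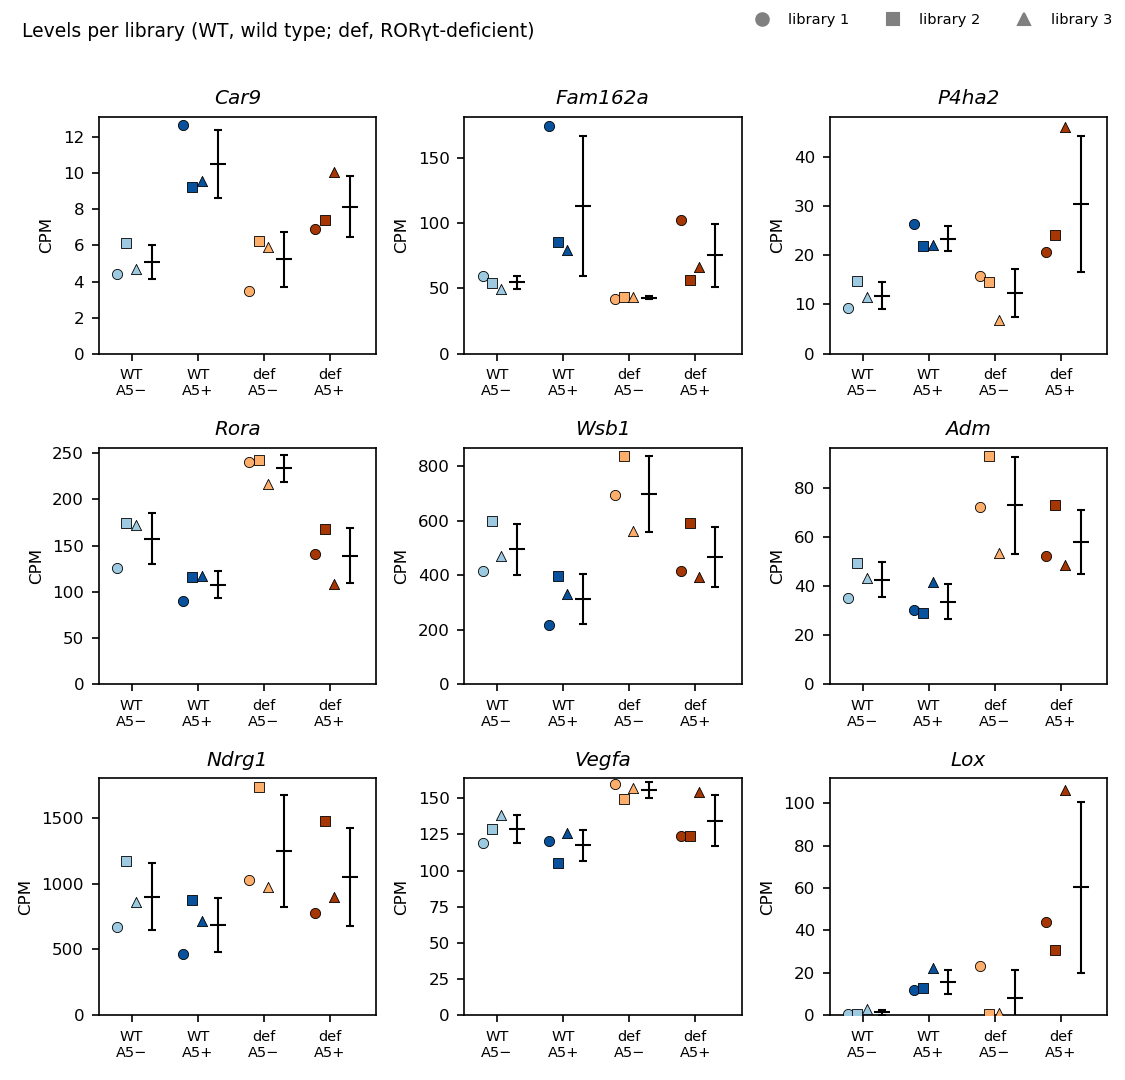
CPM of 9 members in each library (points, with a shape for each library number) and group mean with SD (bars beside them), by genotype and A5 fraction; each vertical axis starts at 0. Adm is above wild type in every deficient library of the same fraction, and number 2 is the highest in all groups for Wsb1 and Ndrg1.

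Both histone demethylases fell with A5 in deficient mice with the block, and Kdm4b also in wild type. Kdm4b (chr17:56326062-56402870), which removes methyl groups from lysine 9 of histone H3, read 96.2, 114 and 103 CPM and 74.7, 98.6 and 74.1 CPM in wild-type A5-negative and A5-positive cells, and 110.2, 135 and 108 CPM and 79, 90.2 and 60.3 CPM in those of deficient mice. The fractions overlapped in wild type and did not in deficient mice. With A5 it fell by 0.34 on the log2 scale in wild type with the block (adjusted p 0.0478, without it 0.278), a call lost without any of the 6 wild-type libraries (0.0574 to 0.195). In deficient mice it fell by 0.62 with the block (0.00324, without it 0.0577), and with the block all 12 fits that left out 1 library made this call (0.00465 to 0.0207). Kdm3a (chr6:71588972-71632990), a demethylase of the same lysine, read 100.5, 146 and 121 CPM and 92.8, 110.2 and 90.5 CPM in wild type and 150.1, 174 and 132 CPM and 104, 140.1 and 97.3 CPM in deficient mice. Number 2 was the highest in each group for both genes. In deficient mice Kdm3a fell by 0.42 with A5 with the block (0.0176, without it 0.2), which was lost when number 1 of the A5-negative (0.0571) or number 1 or 3 of the A5-positive deficient libraries was dropped (0.0532 and 0.097). Kdm3a averaged over the fractions was higher in deficient mice by 0.27 ± 0.13 with the block (0.0394, without it 0.265), a call that stood in only 1 of the 12 fits, without RORγt-deficient A5-negative library 2 (0.048), and reached 0.115 without wild-type A5-positive library 2.

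Rora, a nuclear receptor of the same family as RORγt, was the member with the most calls among the transcription regulators. It read 126, 174 and 173 CPM in wild-type A5-negative and 90.6, 116 and 117 CPM in wild-type A5-positive libraries, against 241, 243 and 217 CPM and 141, 168 and 108 CPM in deficient mice. In each genotype the A5-positive libraries were all below the A5-negative ones, and in A5-negative cells the deficient libraries were all above wild type. Group means were 158 ± 27.3 and 108 ± 15 CPM in wild type and 234 ± 14.6 and 139 ± 29.8 CPM in deficient mice. With A5, Rora fell by 0.75 ± 0.18 in deficient mice (adjusted p 0.0318, with the block 0.00806). With the block all 12 fits that left out 1 library kept that call (0.00698 to 0.0457), and without it 3 of 12 did (0.0125 to 0.137). In wild type it fell by 0.55 ± 0.18 with the block (0.0386, without it 0.121), lost on leaving out number 2 or 3 of the A5-negative (0.0898 and 0.184) or number 1 or 2 of the A5-positive libraries of wild type (0.164 and 0.128). Rora averaged over the fractions was higher in deficient mice by 0.47 ± 0.13 with the block (0.0231, without it 0.133). Libraries 1 and 2 of both wild-type groups, RORγt-deficient A5-negative library 1 and A5-positive library 2 each decided that call (0.0554 to 0.0812 without them).

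Bhlhe40, a repressor tied to the circadian clock, read 502, 506 and 571 CPM and 488, 515 and 579 CPM in wild-type A5-negative and A5-positive cells, and 740.5, 597 and 558 CPM and 607, 519 and 583 CPM in deficient mice. Mxi1, an antagonist of MYC, had group means of 95 ± 16.5, 78.6 ± 7.5, 89 ± 12.9 and 72.7 ± 5.89 CPM in the same order. Neither passed in any comparison. Hif3a had 1 count in wild-type A5-positive library 2 and 6 counts in RORγt-deficient A5-positive library 2, with floors of 3 counts at 0.0901 and 0.0913 CPM there.

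Among the growth and stress genes, Ndrg1 (chr15:66929318-66969640), a differentiation-linked gene of epithelia, was higher in deficient mice with the block. It read 674, 1175 and 863 CPM and 469, 876 and 716 CPM in wild-type A5-negative and A5-positive cells and 1030.2, 1742 and 979 CPM and 777, 1478 and 901 CPM in deficient mice. Number 2 was the highest in every group, and the genotypes overlapped in both fractions. In A5-positive cells the log2 change was 0.62 ± 0.32, called with the block (adjusted p 0.038, without it 0.382) in 4 of 12 fits leaving out 1 library. Those 4 left out wild-type A5-negative library 1, wild-type A5-positive library 3 or RORγt-deficient A5-negative library 1 or 3, and the other 8 gave 0.0512 to 0.167. Averaged over the fractions it was 0.54 ± 0.23, called with the block (0.00967, without it 0.222) and in all 12 of those fits (0.0059 to 0.0485).

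Ddit4, an inhibitor of mTORC1, read 33.6, 27.5 and 27.1 CPM and 58.5, 41.1 and 28.9 CPM in wild type and 24.2, 21 and 24.9 CPM and 43.3, 25.1 and 24.9 CPM in deficient mice. Its change with A5 was 0.55 ± 0.26 and 0.41 ± 0.26, and passed in neither fit. Ccng2, a cyclin that restrains the cell cycle, had group means between 60.7 and 76.3 CPM and no call.

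Plin2 (chr4:86648386-86670060), which coats lipid droplets, read 271, 161 and 341 CPM and 112, 116 and 259.7 CPM in wild-type A5-negative and A5-positive cells and 117, 201 and 283 CPM and 116, 104 and 222 CPM in deficient mice, with number 3 the highest in all 4 groups. With A5 it fell by 0.67 ± 0.43 in wild type, called with the block (adjusted p 0.0462, without it 0.393). The call stood in 4 of 12 fits leaving out 1 library, those without wild-type A5-negative library 2, wild-type A5-positive library 3 or RORγt-deficient A5-negative library 1 or 2, and reached 0.197 without wild-type A5-negative library 1. The 8 macrophage markers summed to 987, 63.5 and 206 CPM in wild-type A5-negative and 69.9 to 118 CPM in wild-type A5-positive libraries. In deficient mice they summed to 410.5, 68.7 and 412 CPM in A5-negative libraries and 60.0 to 156 CPM in A5-positive libraries. The 5 Langerhans and dendritic cell markers summed to 3198, 289.7 and 732 CPM in wild-type A5-negative and 278 to 853 CPM in wild-type A5-positive libraries, and to 1078, 293 and 1124 CPM in deficient A5-negative and 383 to 820.2 CPM in deficient A5-positive libraries. The part of either cell type in Plin2 was not tested. Insig2, a brake on cholesterol synthesis, and Vldlr, a lipoprotein receptor, had no call. Insig2 in A5-positive cells had a genotype change of 0.34 ± 0.13 (adjusted p 0.264, with the block 0.085).

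Wsb1, a subunit of a ubiquitin ligase, was lower in A5-positive cells and higher in deficient mice with the block. It read 417, 599.7 and 473 CPM and 216, 397 and 331 CPM in wild-type A5-negative and A5-positive cells, and 697, 838 and 562 CPM and 417, 592 and 393 CPM in deficient mice. Number 2 was the highest in each group, and only the wild-type fractions did not overlap. With A5 it fell by 0.66 ± 0.25 in wild type (0.0156 with the block, adjusted p 0.16 without) and by 0.58 ± 0.24 in deficient mice (0.0198 with the block, adjusted p 0.194 without). The calls were lost without wild-type A5-negative library 3 (0.0853) or A5-positive library 1 or 2 (0.0576 and 0.0632), and, in deficient mice, when number 1 of the A5-negative (0.0923) or number 1 or 3 of the A5-positive libraries was dropped (0.0532 and 0.102). Averaged over the fractions the genotype change was 0.53 ± 0.17 (adjusted p with the block 0.0125, without it 0.158), lost without wild-type A5-negative library 2 (0.0589).

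The remaining members had no call. Ankrd37, a small ankyrin-repeat protein, read 5.47, 5.23 and 4.97 CPM and 8.37, 4.35 and 6.63 CPM in wild-type A5-negative and A5-positive cells and 3.96, 5.38 and 5.02 CPM and 6.83, 4.17 and 4 CPM in deficient mice. Anxa2, a calcium-dependent membrane-binding protein, had group means of 2511 ± 285 and 3335 ± 745 CPM in wild type and an A5 change of 0.41 ± 0.19 there (adjusted p 0.246, with the block 0.0666). Tmem45a, a membrane protein of keratinising epithelium, lay between 361 and 552 CPM in all libraries.

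**Figure D4:**
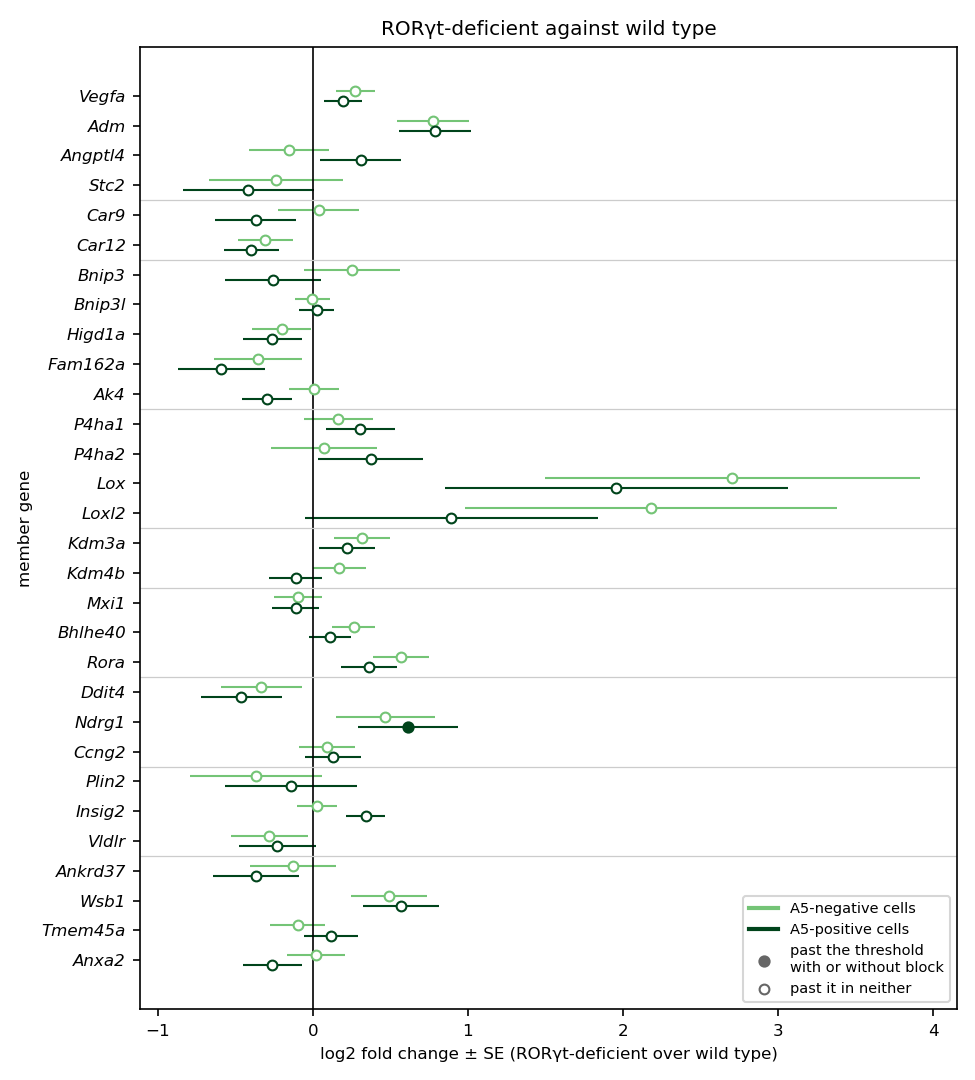
Log2 fold change with SE of each tested member between RORγt-deficient and wild-type mice (horizontal axis), in A5-negative and A5-positive cells, from the fit without the block. Ndrg1 in A5-positive cells is the only filled point, past the threshold with the block; Adm lies near 0.78 in both fractions.

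The 12 immediate early and heat shock genes known to be induced by enzymatic dissociation had the same signs as the 6 members that were higher in deficient mice with the block (Adm, Kdm3a, Ndrg1, Rora, Vegfa and Wsb1). These 6 had A5 changes below 0 in both genotypes and genotype changes above 0 in both fractions. They were chosen by their genotype change averaged over the fractions, so the sign of that change was largely set by the choice. The share of all genes with the same signs was not counted. All 12 had A5 changes below 0 in both genotypes, with medians of -0.44 and -0.51, and genotype changes above 0 in both fractions, with medians of 0.26 and 0.31. Their summed level was 15219 to 20649 CPM in wild-type A5-negative, 10634 to 14710 CPM in wild-type A5-positive, 18335 to 26272 CPM in deficient A5-negative and 13400 to 17738 CPM in deficient A5-positive libraries. Markers of differentiating keratinocytes had median A5 changes of -0.55 and -0.61, and 3 of 7 fell in each genotype with the block. Their median genotype changes were -0.207 in A5-positive and -0.115 in A5-negative cells, with 1 and 2 of 7 above 0. The part of either in the values of these members was not tested.

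The extremes of the members were also counted by library and by library number, as a description. Wild-type A5-positive library 1 had the highest value of all 12 for 11 of 30 members and the lowest for 7, beside 22.7% and 16.8% of all tested genes. RORγt-deficient A5-negative library 2 and RORγt-deficient A5-positive library 3 were the highest for 6 members each, beside 15% and 8.39% of all genes. In 7 of 30 members (23.3%) the same number was the highest in all 4 groups, as in 18% of all genes: number 2 for Kdm3a, Kdm4b, Ndrg1, Ccng2 and Wsb1, and number 3 for Plin2 and Tmem45a. The same number was the lowest in all groups in 3 members (10%), Bnip3, Anxa2 and Ccng2, and in 17.4% of all genes.

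The glycolytic hypoxia targets, listed for comparison, had other values in the same libraries. In wild type 8 of the 20 rose with A5 (12 with the block), with a median log2 change of 0.69 against 0.08 for the members above. Of all genes 3.12% rose there, and 8.76% with the block. The shares of all genes given above for each comparison also stand beside the counts of this list and the 2 below. In deficient mice 0 of 20 passed with edgeR, with 10 at an unadjusted p under 0.05, and with the block 7 rose and 1 fell, with a median of 0.33 against 0.05. Between genotypes their median was -0.44 in A5-positive cells, with 2 of 20 changes above 0, where that of the members above was 0.07 with 16 of 30 above 0. In A5-negative cells the medians were -0.09 and 0.03, with 9 of 20 and 18 of 30 above 0. These comparisons share libraries and were not tested against each other. The median centred level of the 20 was 0.851 in wild-type A5-positive library 1 and 0.319 and 0.196 in libraries 2 and 3, while that of the 30 members was 0.0471, 0.00745 and 0.0599.

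**Figure D5:**
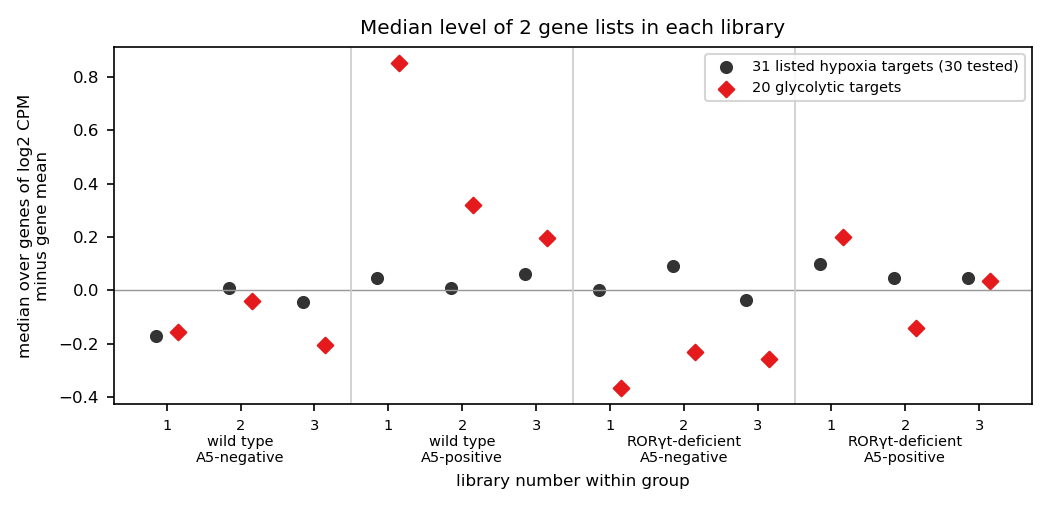
Median over genes of log2 CPM minus the gene mean (vertical axis) in each of 12 libraries, for the 30 tested members and the 20 glycolytic targets. The members stay between -0.171 and 0.098, while the glycolytic targets run from -0.366 to 0.851 and are highest in wild-type A5-positive library 1.

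Of the 11 HIF subunits and oxygen sensors edgeR called 0 in any of the comparisons without the block, with 4 and 2 at an unadjusted p under 0.05 for A5 in wild-type and deficient mice, 4 and 0 for genotype in A5-positive and A5-negative cells and 4 for genotype averaged. Hif1a, the alpha subunit of HIF-1, read 331, 394 and 375 CPM and 556, 519 and 374 CPM in wild-type A5-negative and A5-positive cells and 421, 406 and 379.6 CPM and 374, 452 and 421 CPM in deficient mice. Its A5 change in wild type was 0.40 ± 0.15 (adjusted p 0.173, with the block 0.0787). Epas1, the HIF-2 alpha subunit, had group means of 44.6 ± 11.9, 37.2 ± 5.24, 49.7 ± 4.51 and 35.5 ± 2.35 CPM, with no call. With the block 1 of the 11 was higher with A5 in wild type (Egln1), 1 higher with A5 in deficient mice (Vhl) and 1 lower for genotype in A5-positive cells (Egln1), and averaged over the fractions 2 were higher and 2 lower in deficient mice. The higher ones were Cited2, a competitor of HIF for its coactivator (0.57 ± 0.16, adjusted p 0.0222 with the block and 0.133 without), and Siah2, a ubiquitin ligase that acts on the prolyl hydroxylases (0.27 ± 0.12, 0.0407 and 0.243). Arnt, the shared partner of the alpha subunits, was lower in deficient mice by -0.32 ± 0.09 averaged over the fractions with the block (adjusted p 0.0352, without it 0.134). Egln1, the main oxygen-sensing prolyl hydroxylase, changed by -0.36 ± 0.11 in that comparison (0.0309 with the block, adjusted p 0.152 without). Egln3, a hydroxylase that is itself a hypoxia target, had a change of -0.21 ± 0.17 (adjusted p 0.5). RNA levels of these genes do not measure the protein, which is where oxygen acts on Hif1a and Epas1.

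Of 18 other hypoxia-induced genes 17 were tested. With A5, 1 rose and 0 fell in each genotype, and with the block 2 rose and 3 fell in wild type and 1 rose and 2 fell in deficient mice. For genotype 0 passed without the block, and with it 1 was higher and 1 lower in A5-positive cells and 2 were higher and 2 lower averaged over the fractions. Gys1, glycogen synthase, rose with A5 in wild type by 0.73 ± 0.18 (adjusted p 0.0453, with the block 0.0115). The median A5 changes of the 17 were -0.09 in wild type and -0.14 in deficient mice. Edn1, the vasoconstrictor endothelin, was higher in deficient mice averaged over the fractions by 0.85 ± 0.25 with the block (0.0118, adjusted p 0.139 without), and Narf was lower by -0.41 ± 0.08 with the block (0.00942, without it 0.099).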

How the data were processed

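Bulk RNA was sequenced from 12 libraries of sorted mouse wound keratinocytes, 3 in each of 4 groups taken from the sample titles. The values are whole-number counts of reads for each gene, deposited by the authors without normalization. Per the submitters' processing notes the tools were bcl2fastq, Trimmomatic 0.36, STAR and featureCounts, on mm10/GRCm38, and the labels' protocols name SMART-Seq v4 and ThruPLEX for the libraries. The sources used here do not give the annotation release, the strand setting or how reads mapping to several genes were treated. Of 55341 rows, 26 whose gene symbols had become dates (0.110% to 0.128% of counts) were left out.

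Counts were scaled by TMM (factors 0.919 to 1.08), filtered by filterByExpr and fitted in 1 model of 4 groups with edgeR 4.0.16 (R 4.3.3, quasi-likelihood F test, Benjamini-Hochberg adjustment over 16677 genes, threshold 0.05). Adjusted p-values are from this fit unless another is named, and SE is the log2 change divided by the square root of F. The list members, the comparison lists and the tests were chosen with earlier results of these data known. Values in every library are given for members called in any comparison and for a fixed set of well-known targets, and the rest are summarised. Some genes outside the member list are not reported here. Total counts of 29293687 to 74563616 put a floor of 3 counts at 0.0407 to 0.101 CPM, which covers counting error only.

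Replicate numbers come from the titles. After removal of group means, libraries with the same number correlated across 8730 genes in all 18 pairs (r 0.115 to 0.733, median 0.428), so the number was also fitted as a block. The median over 36 pairs with different numbers was -0.204. Removing the means makes the residuals of each group sum to 0, so this negative value follows from the positive ones and is no separate contrast. Within a group, libraries differed far beyond sampling noise (chi-square per degree of freedom 66.4 to 188). Whether numbers stand for separate animals or sequencing runs limits what the p-values cover, and they measure the spread between these libraries.

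On data simulated for the A5 comparison in wild type (16273 genes), edgeR recovered 31.6% of changes of log2 size 1 and 60.2% of those of size 2 with 5 false calls, and DESeq2 1.42.0 recovered 53.7% and 78.6% with 32. The simulated counts had no effect shared by libraries of the same number, unlike the real ones. These figures therefore do not cover the calls made with the block. Alternatives were other size factors, DESeq2, other filters, another prior count, the block, fits of only the libraries compared, and fits without each library in turn. Gene positions are from GENCODE M21 (GRCm38) and promoters from RefSeq (GRCm38.p6).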

Additional observations from a re-analysis of the deposited data

How the results depend on the processing

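For members called with A5 in wild type, the count of 1 became 0 with RLE size factors or total counts, 4 with DESeq2, 5 with no filter and 9 with the replicate block. In RORγt-deficient mice the count of 1 became 2 with total counts or a stricter filter (5 CPM in 3 libraries), 4 with DESeq2, 6 with no filter, 7 with the block and 0 with the compared libraries alone. For genotype the 0 members became 1 in A5-positive cells with DESeq2 or the block, and, averaged over the fractions, 2 with DESeq2 or no filter and 7 with the block. The counts of all genes called moved from 575, 921, 1, 1, 9 and 0 (A5 in wild type and deficient mice, genotype in A5-positive and A5-negative cells and averaged, and interaction) to 1454, 1723, 493, 21, 973 and 8 with DESeq2. With the block they were 2394, 2937, 670, 1, 2018 and 0. With no filter they were 939 for A5 in wild type and 67, 7 and 310 for genotype in A5-positive cells, A5-negative cells and averaged. The averaged comparison gave 4 with the stricter filter, and A5 in wild type gave 344 with the compared libraries alone.

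The median change of the members with A5 in wild type, 0.08, became 0.17 with no filter, -0.0698 with the stricter filter and -0.0330 without Lox and Loxl2, an alternative chosen after seeing the data, under which the median for genotype in A5-positive cells was -0.0417. With total counts the median was -0.0589 for genotype in A5-negative cells and -0.00996 for the interaction. The median member level became -0.0582 in wild-type A5-negative library 1, -0.0289 in RORγt-deficient A5-negative library 2 and 0.0134 in RORγt-deficient A5-positive library 2. Another scaling moved the median of all genes by at most 0.09.

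Leaving out 1 library without the block gave 0 to 3 members for A5 in wild type, 0 to 3 in deficient mice and 0 in the other comparisons, with medians of 0.0268 to 0.0846, -0.0542 to 0.0710, 0.0317 to 0.176 (genotype, A5-positive), -0.0192 to 0.119 (A5-negative), -0.00469 to 0.0621 (averaged) and -0.118 to -0.0220 (interaction). With the block the counts were 0 (without wild-type A5-negative library 3) to 13 (without RORγt-deficient A5-negative library 1), 2 (without RORγt-deficient A5-positive library 3) to 9 (without wild-type A5-positive library 1), 0 to 3 (without wild-type A5-positive library 3), 0, 1 (without wild-type A5-negative library 2) to 8 (without RORγt-deficient A5-negative library 3) and 0. For A5 in wild type the highest of these counts were 10, 11, 12 and 13, without RORγt-deficient A5-negative library 3, wild-type A5-positive library 3 and RORγt-deficient A5-negative libraries 2 and 1. The medians with the block were 0.0233 to 0.110, -0.0136 to 0.102, 0.00270 to 0.126, -0.0321 to 0.0905, 0.00548 to 0.0450 and -0.102 to 0.00398. For the interaction they included -0.0200, -0.00948 and 0.00306, without wild-type A5-positive library 3, wild-type A5-negative library 1 and RORγt-deficient A5-negative library 1. Single members were compared with the fit without the block. Its only member calls were Car9 with A5 in wild type and Rora with A5 in deficient mice. Against that fit none of the called changes reversed, 27 values lost the call, 244 gained it and 4940 kept their side of the threshold with their sign. Losses of calls made only with the block, given above for each member, are not among the 27. The remaining 296 values, of uncalled changes, took the other sign. The causes were not tested. At this depth Hif3a could not be tested, and Loxl2 rests on 0 to 5 counts in 5 of 6 A5-negative libraries.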
